A study of Mus musculus with 12 samples.

Results

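Mouse embryonic stem cells that lacked Bod1l and had received etoposide were compared with untreated wild-type cells, so that both the gene loss and the drug separated the groups. The comparison used 6 of the 12 libraries of the study, 3 labelled Bod1L knockout with tamoxifen and etoposide and 3 labelled wild type with neither agent, chosen by their titles. Of 41079 gene identifiers in the files, 14065 had a mean of at least 1 TPM over these 6 libraries and were tested. TPM is a level that corrects each gene for its length and gives every library the same total. The other 6 libraries, 3 of wild type with etoposide and 3 of untreated knockout, show what each factor did alone. The labels name tamoxifen, the drug that switches on some forms of Cre recombinase, for the knockout groups and not for the wild type, so the knockout and tamoxifen cannot be told apart here. They give no etoposide dose or time, and no clone, sex or strain of the cells. They call the libraries biological replicates without saying whether separate cultures were used, so p-values here reflect only how much these libraries vary.

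Etoposide traps type II topoisomerases on DNA and leaves breaks across both strands. Such breaks activate the kinases ATM and ATR, which stabilise the transcription factor p53. p53 then raises genes of growth arrest, cell death, metabolism and repair, and also its own inhibitor Mdm2, which closes a feedback loop. BOD1L, the protein of Bod1l, protects stalled replication forks and is a partner of the SETD1A histone methyltransferase. Embryonic stem cells divide quickly and are known for a short G1 phase and high basal replication stress.

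Bod1l, the deleted gene, was lower in every knockout library. It (chromosome 5, 41944881 to 42001695, minus strand, GRCm39 as in the files) stood at 48.5, 48.8 and 50.6 TPM in untreated wild type and at 12.95, 12.35 and 11.75 TPM in knockout with etoposide. That was a change of -1.91 ± 0.05 (SE) on the log2(TPM + 1) scale, with a limma adjusted p of 3.48e-11, and left 25.1% of the wild-type level. Read totals, estimated from coverage, were 6.64 to 7.30 gigabases aligned to genes in untreated wild type and 6.88 to 7.76 in knockout with etoposide, and log levels of replicates correlated across genes at 0.9949 to 0.9954. The 7 embryonic stem cell markers found were all above 1 TPM in every library and summed to 7850 to 7870 TPM in untreated wild type and 6830 to 7140 TPM in knockout with etoposide. The summed level of 12 feeder fibroblast markers was 442 to 454 TPM against 296 to 304 TPM, nearly all of it Vim, which stem cells express as well. Without Vim the sums were 11.7 to 13.2 and 11.6 to 12.0 TPM, and Col3a1, Postn, Dcn and Lum were at or near 0. The sum of 12 extraembryonic endoderm markers was 423 to 457 TPM against 446 to 487 TPM, with Sox17, Foxa2, Afp and Ttr near 0. Most of that sum was Sparc, with means of 358 and 357 TPM. Of the 6 endoderm markers tested, 5 were called higher and 0 lower, with a median change of 0.498, beside 32% and 26.3% over all genes tested. Gata4 and Pdgfra, with means of 0.87 and 0.91 TPM in untreated wild type, passed the level filter only through the group where they are high. Among markers under the filter, the mean of Sox7 went from 0.562 to 0.214 TPM and that of Gata6 from 0.268 to 1.13 TPM. The count of 5 and 0 thus depends in part on the filter. Lama1 went from a mean of 65.4 to 82.5 TPM and Col4a1 from 14.7 to 26.2 TPM. In such bulk libraries, fewer cells of a type and less RNA per cell cannot be told apart.

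Together the knockout and etoposide moved a large part of the transcriptome, mostly by small amounts. Of the 14065 genes, 8203 (58.3%) differed at a limma adjusted p under 0.05, 4500 (32%) higher and 3703 (26.3%) lower in knockout with etoposide. The median change in size was 0.22 on the log2 scale. Changes of at least 1.5-fold were found for 1341 genes higher (9.53%) and 803 lower (5.71%), of at least 2-fold for 571 genes higher (4.06%) and 195 lower (1.39%), and of at least 4-fold for 68 higher (0.483%) and 9 lower (0.064%). Etoposide alone called 2917 genes higher (20.7%) and 1907 lower (13.6%), and the knockout alone 3944 higher (28%) and 3042 lower (21.6%). These comparisons share the untreated wild-type libraries. In 1193 genes (8.48%) the 3 libraries of knockout with etoposide lay above all 9 others, and in 776 (5.52%) below all 9 others. The balance of calls depended on scaling and on the level filter. Of the called genes 54.9% were higher with TPM, and 48.2% to 49.7% with FPKM, size factors or quantile normalization. With TPM the share was 51.7% where a mean of at least 5 TPM was required and 58.9% with no filter.

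**Figure D1:**
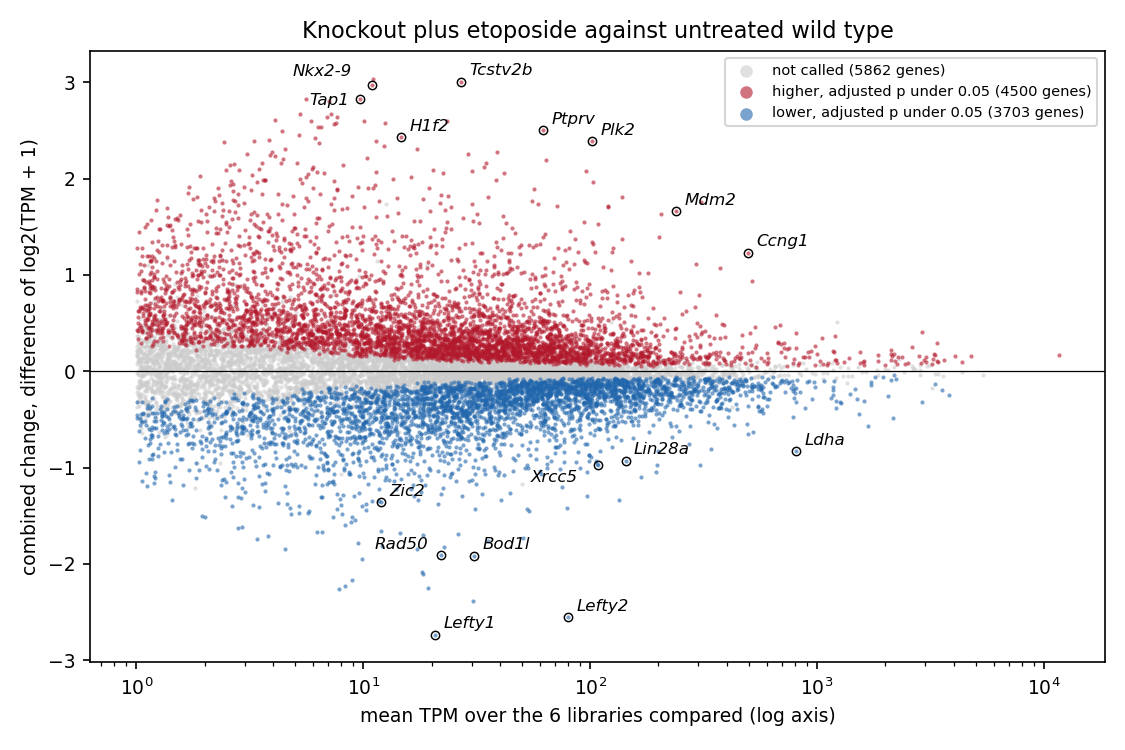
Each point is 1 of the 14065 genes tested, with its mean TPM over the 6 libraries on the horizontal log axis and its change between knockout with etoposide and untreated wild type on the vertical axis, as a difference of log2(TPM + 1). Red points are the 4500 genes called higher and blue points the 3703 called lower. Plk2, Mdm2 and Ptprv stand high among well-expressed genes, while Lefty1 and Lefty2 are the lowest points.

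Most genes of 3 lists drawn up around p53 rose. The lists were chosen with earlier results of these data known, and not every member, Cdkn2a for example, is an established p53 target. Of 92 names in the lists, 85 passed the level filter, 73 of them rose, 7 fell and 5 were not called. Over all genes tested 32% were called higher and 26.3% lower, and the counts of each list below stand beside these shares. The median change of the 85 was 0.93, beside 0.03 over all genes tested. In 38 of the 85 genes the libraries of knockout with etoposide lay above all 9 others, beside 8.48% of all genes, and in 0 below all 9 others. Trp53, the gene of p53 itself, stood at 561, 561 and 528 TPM in untreated wild type and at 528, 532 and 535 TPM under both, a change of -0.05 ± 0.02 that was not called (limma adjusted p = 0.0958).

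Plk2 had the lowest adjusted p. Plk2 (chromosome 13, 110531578 to 110537378), a p53-induced kinase of the S-phase checkpoint and centrosome, stood at 32.8, 30.4 and 33.0 TPM in untreated wild type, 121, 125 and 125 TPM with etoposide, 82.9, 83.7 and 80.5 TPM in the knockout and 172, 168 and 177 TPM with both. No library of one group overlapped another group, and the 4 groups stood in the order wild type, knockout, etoposide, both. The change under both was 2.39 ± 0.03 on the log2 scale, or 5.38-fold in TPM, with a limma adjusted p of 9.98e-13. Mdm2 (chromosome 10, 117524780 to 117546663), the ubiquitin ligase that restrains p53, stood in the same order. Its levels were 115, 113 and 115 TPM untreated, 259, 275 and 275 TPM with etoposide, 215, 198 and 203 TPM in the knockout and 361, 355 and 376 TPM with both, a change of 1.66 ± 0.03. Of the 28 feedback and arrest genes, 25 rose and 2 fell, Gadd45b and Prdm1, with a median of 0.70.

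The other members of the feedback and arrest list differed in how much the second factor added. Btg2, an antiproliferative cofactor, went from 41.8, 40.1 and 41.7 TPM to 166, 159 and 166 TPM, and Trp53inp1, a p53-induced nuclear protein, from 139, 141 and 141 TPM to 454, 488 and 490 TPM. Ccng1, a cyclin that acts with Mdm2, rose from 291, 296 and 303 TPM to 689, 689 and 717 TPM. In these 3 genes the libraries with both factors lay above all others. Cdkn1a, the cyclin-dependent kinase inhibitor p21, did not follow. It stood at 150, 145 and 143 TPM untreated, 218, 221 and 228 TPM with etoposide, 172, 157 and 170 TPM in the knockout and 213, 218 and 213 TPM with both. The rise of 0.55 ± 0.04 was called, and the difference of both from etoposide alone was -0.05 (limma adjusted p = 0.281). Trp53cor1, a long noncoding RNA beside Cdkn1a, rose by 1.03 ± 0.09 to 6.82, 6.27 and 6.81 TPM, and stood at 2.27 to 2.45 TPM with etoposide alone. Because that gene neighbours Cdkn1a and the strand setting of the counting is not given in the sources used here, reads of the pair may not be fully separated.

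Promoter sequence is shown for 4 p53-list genes that rose, because each holds the p53 decamer, which in tandem makes up a full p53 site. The windows are from RefSeq on GRCm38.p6, an earlier build than the GRCm39 of the files, and run from 250 bases before to 50 bases after a start. They were chosen as the largest changes among list members called higher that hold the decamer. Capitals mark the decamer, which starts 182 bases before the start in Celf5 (chr10:81482650-81482949, minus strand), 186 before in Mdm2 (chr10:117710709-117711008, minus strand), 231 before in Polk (chr13:96519138-96519437, minus strand) and 33 after in Rap2b (chr3:61364257-61364556, plus strand).
Celf5: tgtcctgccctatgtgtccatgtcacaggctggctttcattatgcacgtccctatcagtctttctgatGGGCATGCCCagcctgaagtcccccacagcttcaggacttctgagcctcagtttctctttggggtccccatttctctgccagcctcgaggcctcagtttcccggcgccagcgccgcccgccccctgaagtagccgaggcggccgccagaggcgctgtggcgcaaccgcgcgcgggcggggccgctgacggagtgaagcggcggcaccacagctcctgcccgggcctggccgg
Mdm2: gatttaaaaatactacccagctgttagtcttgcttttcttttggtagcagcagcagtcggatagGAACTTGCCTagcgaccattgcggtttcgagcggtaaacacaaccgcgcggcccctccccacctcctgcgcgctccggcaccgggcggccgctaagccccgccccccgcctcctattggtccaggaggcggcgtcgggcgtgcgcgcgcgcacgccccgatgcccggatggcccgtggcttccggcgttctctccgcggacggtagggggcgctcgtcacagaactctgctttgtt
Rap2b: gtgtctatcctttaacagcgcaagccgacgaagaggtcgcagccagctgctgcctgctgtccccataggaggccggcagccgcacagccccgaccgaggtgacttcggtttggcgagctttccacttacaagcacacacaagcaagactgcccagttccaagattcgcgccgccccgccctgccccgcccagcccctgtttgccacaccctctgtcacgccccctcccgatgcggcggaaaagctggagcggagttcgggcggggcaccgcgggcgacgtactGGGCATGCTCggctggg
Polk: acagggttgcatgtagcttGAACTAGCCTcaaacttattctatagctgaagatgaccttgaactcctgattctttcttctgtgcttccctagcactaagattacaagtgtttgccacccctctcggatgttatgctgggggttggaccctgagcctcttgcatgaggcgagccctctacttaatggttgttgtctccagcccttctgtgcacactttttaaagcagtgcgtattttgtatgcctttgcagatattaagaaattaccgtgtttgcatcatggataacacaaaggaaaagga
The decamer, searched on both strands, was present in 17 of 89 windows of the 65 matched genes among the 73 that rose, and in 920 of 13242 windows (6.95%) of all 10413 matched genes. Among the p53-list genes that did not rise it was in 2 of 9 windows (22.2%). A tandem pair with a gap of up to 13 bases was in 1 window of the genes that rose, that of Cdkn1a, and in 6 windows (0.0453%) of all. A match is a description of letters and not a binding site.

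The cell death targets of p53 rose as a group, but Bbc3 and Pmaip1 among them were not higher than with etoposide alone. Of 21 tested, 18 rose and 1 fell, Tnfrsf1b, with a median of 1.16. Perp (chromosome 10, 18720819 to 18732821), a membrane protein of desmosomes and apoptosis, stood at 21.2, 22.1 and 23.3 TPM untreated, 73.0, 73.3 and 70.5 TPM with etoposide, 64.4, 59.1 and 52.9 TPM in the knockout and 108, 107 and 102 TPM with both. Each factor alone raised Perp, and the libraries with both lay above all others. Trp73, a p53 relative, rose by 2.06 ± 0.05 to 36.3, 35.8 and 38.0 TPM from 8.11, 8.27 and 7.76 TPM, mostly with etoposide. Bbc3, the BH3-only protein PUMA, stood at 58.2, 58.0 and 56.8 TPM with etoposide and at 56.4, 57.0 and 58.5 TPM with both. Pmaip1, the BH3-only protein NOXA, stood at 18.8, 18.4 and 17.5 TPM with etoposide and 15.5, 17.6 and 16.9 TPM with both. Untreated wild type stood at 22.8 to 24.1 TPM for Bbc3 and 5.83 to 6.91 TPM for Pmaip1, and the rises under both were 1.26 ± 0.06 and 1.28 ± 0.09. For both genes the libraries with both factors overlapped or lay under those with etoposide alone. Apaf1, the apoptosome scaffold, rose to 77.6, 77.1 and 76.8 TPM with both from 28.1, 30.1 and 33.6 TPM, and Bax, a pore-forming effector, rose by only 0.28 ± 0.03.

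The third p53 list, of metabolism, redox control and repair, had 30 of 36 genes higher, 4 lower and a median of 0.96. Its 3 largest changes were those of Ddit4, Celf5 and Ptpn14. Celf5, an RNA-binding protein, went from 15.7, 14.7 and 16.0 TPM to 66.9, 70.1 and 66.0 TPM, and Ptpn14, a phosphatase of the Hippo pathway, from 14.9, 14.7 and 15.2 TPM to 60.1, 62.5 and 63.6 TPM. Polk, a translesion DNA polymerase, rose from 22.6, 20.6 and 20.8 TPM to 56.6, 52.0 and 57.5 TPM. Sesn2, a stress-induced inhibitor of mTORC1, rose from 119, 118 and 117 TPM to 242, 239.9 and 240.3 TPM, above all other libraries. Ddit4, also an inhibitor of mTORC1, rose by 2.08 ± 0.07 from 35.4, 39.5 and 33.3 TPM to 154, 158 and 155 TPM. The 4 members that fell were Tigar, Gls2, Rrm2b and Ackr3; Gls2, a mitochondrial glutaminase, went from 30.1, 31.9 and 30.2 TPM to 20.8, 23.1 and 21.5 TPM, and stood at 22.03, 21.58 and 23.52 TPM in the knockout alone.

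**Figure D2:**
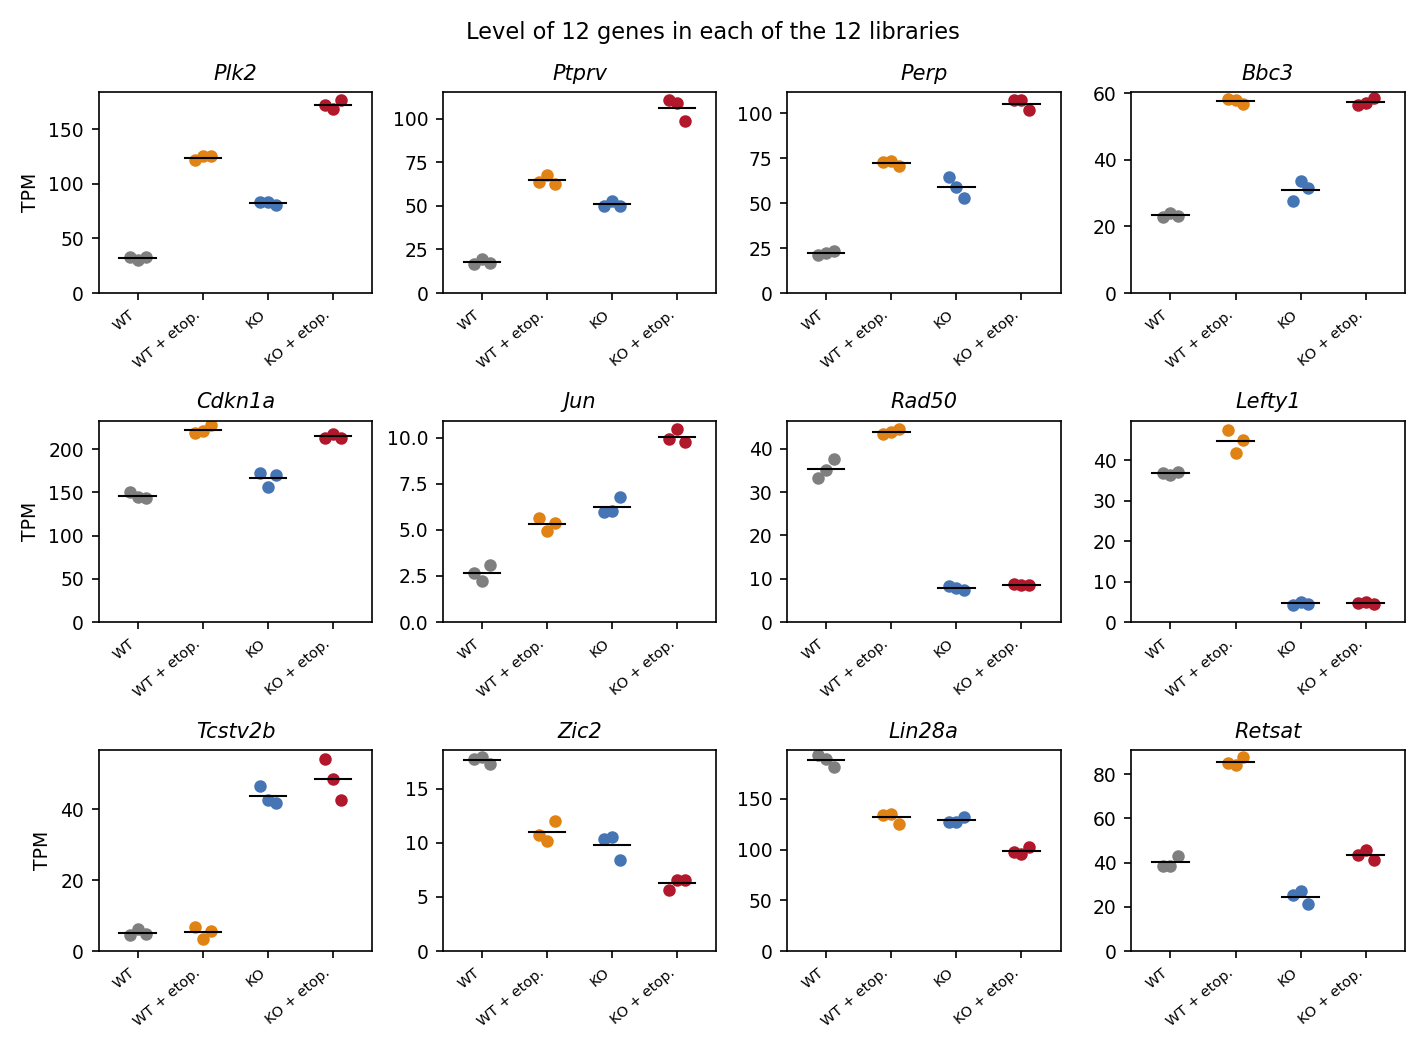
Each panel plots 1 gene, with TPM on the vertical axis from 0 and the 4 groups on the horizontal axis, 3 points for the libraries and a line at their mean. Plk2, Ptprv, Perp and Jun are highest with both factors, Bbc3 and Cdkn1a stand level with etoposide alone, Rad50, Lefty1 and Tcstv2b follow the knockout, Zic2 and Lin28a are lowest with both, and Retsat returns to the untreated level.

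Genes raised by each factor alone and by both were ranked by the smaller of the 2 single changes. The first 10 included Nkx2-9, Ptprv, Serpine2, Azin2, Ltb4r1, Nectin4, Ano3, Perp and Scn3b. Ptprv (chromosome 1, 135036236 to 135060313), a receptor-type tyrosine phosphatase, stood at 16.9, 19.2 and 17.4 TPM untreated, 63.6, 67.9 and 62.5 TPM with etoposide, 50.2, 52.6 and 50 TPM in the knockout and 111, 109 and 98.5 TPM with both. The rise of 2.51 ± 0.06 was 5.95-fold in TPM. Nkx2-9, a homeobox factor of the neural tube, rose from 1.70, 1.34 and 2.06 TPM to 20.4, 19.2 and 20.7 TPM, 11.8-fold. Serpine2, a secreted protease inhibitor, rose from 11.7, 11.6 and 14.4 TPM to 65.6, 67.9 and 60.6 TPM. In these 9 genes the libraries with both lay above the other 9. Tap1, a peptide transporter of antigen processing that is also a p53 target, was among the 12 highest changes at 2.83 ± 0.09, from 1.65, 1.62 and 1.59 TPM to 19.06, 18.03 and 15.91 TPM. Sec14l5 and Dusp13b, a lipid-transfer protein and a phosphatase, rose by 2.67 ± 0.09 and 2.64 ± 0.19, and Sec14l5 reached 10.5, 9.76 and 9.10 TPM from 0.615, 0.732 and 0.736 TPM.

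How the single changes combined depended on the scale. On the log2 scale the interaction, the combined change minus the sum of the single changes, was called lower than 0 in 164 genes (1.17%) and higher in 9 (0.064%), and 29 of the 85 p53-list genes were among those lower. On the linear scale, in TPM, 23 genes (0.164%) were called lower and 6 (0.0427%) higher, and 2 of the 85 p53-list genes, Abhd4 and Ephx1, were among those lower. For Plk2, etoposide added 91.8 TPM and the knockout 50.3 TPM, which sum to 142.1 TPM, and both together added 140.2 TPM. Its interaction was -0.86 ± 0.05 on the log2 scale (limma adjusted p = 9.68e-06) and -1.91 ± 2.91 TPM on the linear scale (adjusted p = 0.875). For Mdm2 the single rises sum to 246.4 TPM and both together added 249.7 TPM, with a linear interaction of 3.31 ± 8.36 TPM. For Perp the sum was 86.6 TPM against 83.2 TPM, for Ptpn14 47.3 against 47.1 TPM, for Celf5 52.9 against 52.2 TPM and for Nectin4 12.5 against 12.0 TPM. Nkx2-9 went the other way, with 14.8 TPM for the sum and 18.4 TPM for both. Bbc3 added 34.4 TPM with etoposide and 7.55 TPM in the knockout, and 34.0 TPM with both. A linear interaction that misses the threshold does not show that the rises add exactly: for Plk2 the SE of 2.91 TPM is the precision of that statement.

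**Figure D3:**
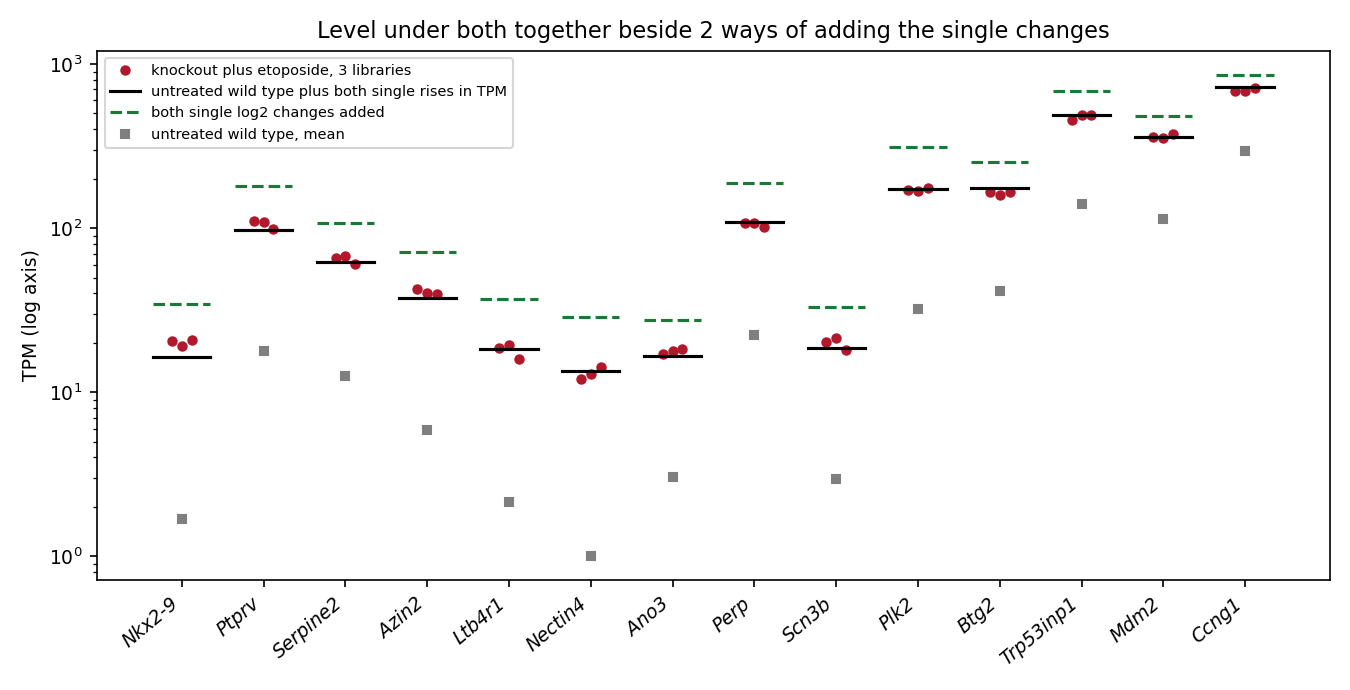
For 14 genes raised by both factors, TPM is on a log axis, with red points for the 3 libraries of knockout with etoposide, a grey square for the untreated wild-type mean, a black line for that mean plus both single rises in TPM and a green dashed line for both single log2 changes added. For Plk2 the black line is at 174.2 TPM, the green line at 314.1 TPM and the libraries at 168 to 177 TPM. In all 14 genes the red points lie under the green line.

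Zic2 and Lin28a were lowered by each factor alone and stood lowest with both. Zic2 (chromosome 14, 122712796 to 122717740), a zinc-finger factor of primed pluripotency, stood at 17.7, 17.9 and 17.2 TPM untreated, 10.7, 10.2 and 12.0 TPM with etoposide, 10.4, 10.5 and 8.37 TPM in the knockout and 5.65, 6.59 and 6.55 TPM with both. With both it was 35.5% of the untreated level. Lin28a (chromosome 4, 133730641 to 133746504), the RNA-binding protein that blocks let-7 maturation, stood at 193, 189 and 181 TPM, 134, 135 and 126 TPM, 127, 127 and 132 TPM, and 97.2, 95.6 and 102 TPM in the same order. Its change was -0.93 ± 0.04. Dnmt3b, a de novo DNA methyltransferase, fell from 107.8, 107.9 and 106.7 TPM to 73.1, 71.1 and 73.4 TPM, with 83.1 to 89.7 TPM and 85.1 to 87.4 TPM under the single factors. Dnmt3a fell by 0.89 on the log2 scale, mostly in the knockout. Otx2, a factor of the primed state, fell from 14.7, 12.5 and 16.5 TPM to 6.70, 8.76 and 6.71 TPM, and its libraries with both overlapped those with etoposide alone.

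By the same ranking the 10 genes lowered by both factors were Mir12202, Tspan17, Pou4f2, Etv1, Zic2, Rln3, Gata2, Vrtn, Mdfic and Cep44, and most were weakly expressed. Tspan17, a tetraspanin, fell from 11.9, 10.5 and 11.6 TPM to 3.01, 3.26 and 3.67 TPM, or 29.3% of the untreated level. Pou4f2, a neuronal POU factor, fell from 3.97, 3.21 and 3.85 TPM to 1.00, 1.03 and 1.13 TPM. Mdfic, an inhibitor of MyoD-family factors, fell from 7.83, 8.86 and 9.51 TPM to 3.77, 3.98 and 4.76 TPM. Zic2, Tspan17, Pou4f2 and Mdfic were below all 9 other libraries. In Etv1, Rln3, Gata2, Vrtn, Cep44 and Mir12202 the libraries with both overlapped those of a single factor. The calls of Rln3 and Mir12202 were lost under several settings. Rln3 lost its call without untreated wild-type replicate 1 or 3 or knockout with etoposide replicate 1 or 3 (limma adjusted p = 0.0743 to 0.141), and Mir12202 without replicate 3 of either group (0.0593 and 0.0572). With a pseudocount of 0.1 the adjusted p was 0.0508 for Rln3 and 0.0663 for Mir12202, and for Rln3 it was 0.0908 with no filter and 0.0607 with a replicate block.

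Other genes stood about as far from untreated wild type in the knockout without etoposide. Lefty1 (chromosome 1, 180762587 to 180765966), a secreted inhibitor of Nodal, had the lowest change of the genes tested, -2.73 ± 0.06. It stood at 36.9, 36.3 and 37.2 TPM untreated, 47.6, 41.9 and 45.0 TPM with etoposide, 4.25, 5.00 and 4.57 TPM in the knockout and 4.80, 4.90 and 4.35 TPM with both. Lefty2, its paralog beside it on chromosome 1, stood at 130, 140 and 144 TPM untreated, 32.5, 29.4 and 31.9 TPM in the knockout and 20.9, 24.8 and 22.3 TPM with both. Unlike Lefty1, Lefty2 was lower with etoposide within the knockout by 0.45 (limma adjusted p = 0.000527), and its libraries with both were the lowest of all 12. Nodal itself, the ligand, rose from 113, 118 and 117 TPM to 182, 194 and 186 TPM, above all others. The list of Nodal, BMP and ID signalling had 7 genes higher and 9 lower of 28, with a median of -0.02. Over all genes tested the shares were 32% higher and 26.3% lower. Bmp7, a BMP ligand, rose from 5.24, 4.94 and 5.26 TPM to 13.29, 15.47 and 14.97 TPM, and etoposide alone gave 13.9, 12.3 and 12.5 TPM.

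Several DNA repair genes stood far lower in the knockout with or without etoposide. Rad50 (chromosome 11, 53540346 to 53598146), a subunit of the MRN complex that senses broken ends, stood at 33.3, 35.1 and 37.6 TPM untreated, 43.4, 44.0 and 44.6 TPM with etoposide, 8.21, 7.96 and 7.42 TPM in the knockout and 8.80, 8.66 and 8.48 TPM with both. Its change was -1.91 ± 0.05. Rad50 rose with etoposide in wild type, and within the knockout etoposide changed it by 0.12 (limma adjusted p = 0.11). The linear interaction of -7.92 ± 1.47 TPM had an adjusted p of 0.073. Of 40 genes of homologous recombination, which copies an intact sister strand, 21 fell and 7 rose, with a median of -0.18, beside 26.3% lower and 32% higher over all genes tested. Bod1l, the deleted gene, is counted among the 21 that fell. Rad51c, a recombination factor, fell from 12.5, 13.8 and 12.6 TPM to 3.72, 3.43 and 3.69 TPM. Mcm8, a helicase subunit, fell from 26.03, 24.88 and 25.97 TPM to 10.5, 9.79 and 10.1 TPM, and Hsf2bp, a BRCA2-binding protein, by 2.39 on the log2 scale.

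The other repair lists are to be read against the same shares over all genes tested, 26.3% lower and 32% higher. Of 23 mismatch repair genes 16 fell and 4 rose, with a median of -0.15. Mlh3, a MutL-type subunit, fell from 29.6, 30.7 and 29.8 TPM to 15.8, 14.6 and 15.6 TPM. Of 29 genes of end joining and its choice 11 fell and 6 rose; Xrcc5, the Ku80 subunit, fell from 147, 138 and 145 TPM to 71.0, 72.3 and 73.9 TPM. Of 22 checkpoint genes 11 fell and 3 rose; Atr, the kinase of stalled forks, fell from 21.6, 22.3 and 25.7 TPM to 11.8, 12.7 and 12.6 TPM. Of 24 base excision repair genes 13 fell and 5 rose, and of 24 Fanconi anemia genes 10 fell and 7 rose, with a median of -0.04 that changed sign with the processing. The 14 topoisomerase genes split 5 and 5, and Top2a, a target of etoposide, fell by 0.12 from 393, 401 and 413 TPM to 357, 377 and 374 TPM, a call that was lost with quantile normalization (limma adjusted p = 0.225).

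Rev1, Xrcc1 and Slx4 are repair genes that rose. Rev1, a translesion polymerase, went from 30.2, 26.9 and 27.6 TPM to 60.5, 59.5 and 57.3 TPM, with 51.6 to 56.0 TPM under etoposide and 36.9 to 38.6 TPM in the knockout. Xrcc1, the scaffold of single-strand break repair, went from 94.4, 99.3 and 94.7 TPM to 167, 169 and 163 TPM. Slx4, a nuclease scaffold, rose by 0.44 ± 0.04. All 3 were above all 9 other libraries, as was Polk, shown above with its promoter.

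A few cells in such cultures switch on genes of the embryo at genome activation, the 2-cell-like state, and these genes rose with the knockout. Of 35 names 31 were in the tables and 22 passed the level filter, which members low in wild type pass only where they are high; 21 of the 22 rose and 0 fell, with a median of 2.13. Tcstv2b, the highest change of all named genes at 3.01 ± 0.17, stood at 4.49, 6.36 and 4.72 TPM untreated, 6.82, 3.49 and 5.64 TPM with etoposide, 46.6, 42.7 and 41.9 TPM in the knockout and 54.3, 48.5 and 42.8 TPM with both. Zscan4d, a telomere-linked zinc-finger gene, went from 1.72, 0.904 and 1.10 TPM to 11.9, 12.0 and 9.07 TPM, and Eif1ad8 from 1.05, 1.60 and 1.07 TPM to 12.1, 14.3 and 13.4 TPM. In each of these 3 genes the etoposide libraries overlapped untreated wild type, and the libraries with both overlapped the knockout. Many of these genes have near-identical copies, so values of single members are uncertain. Of 42 histone genes 25 passed the level filter, and 14 of these were higher and 1 lower, with a median of 0.59. Over all genes that passed the filter 32% were called higher and 26.3% lower. With no filter 41 histone genes were tested, 15 of them higher, with a median of 0.45, beside 5315 higher of all 25808 genes then tested. In the knockout alone 12 of the 25 were called higher. H1f2, a linker histone, rose from 4.36, 4.08 and 3.31 TPM to 24.9, 23.2 and 28.4 TPM, with 27.1 to 29.7 TPM in the knockout. The member that fell, H2az1, and the riser H1f0 are variants made outside S phase, so the list's name does not cover them, and poly(A) selection captures only the tailed part of the other histone transcripts.

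Glycolysis was the list with the largest share of falling genes, 25 of 30, with 1 higher and a median of -0.47. The shares over all genes tested were 26.3% lower and 32% higher. Tpi1, triosephosphate isomerase, fell from 391, 411 and 415 TPM to 208, 204 and 207 TPM, and was below all other libraries. Ldha, lactate dehydrogenase A, fell from 1014, 1020 and 1065 TPM to 572, 575 and 598 TPM, and the knockout alone gave 571, 566 and 603 TPM. Hk2, hexokinase 2, fell from 192, 196 and 194 TPM to 130, 131 and 132 TPM, with both single factors between. Slc16a3, a lactate exporter, fell from 23.2, 33.8 and 32.8 TPM to 7.14, 6.37 and 5.25 TPM. Bnip3 and Ndufa4l2, hypoxia-induced mitochondrial proteins, fell by 1.81 and 1.31 on the log2 scale. Slc16a3, Bnip3 and Ndufa4l2 were also uneven among replicates of wild type with etoposide, in which Bnip3 stood at 23.1, 9.72 and 20.7 TPM.

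Replication genes were mostly lower. Of 34 genes of S phase and replication 20 fell and 5 rose, with a median of -0.12, and 12 were below all 9 other libraries, beside 5.52% of all genes. The called shares over all genes tested were 26.3% lower and 32% higher. Over the alternative settings 18 to 23 of the S phase genes fell and 1 to 5 rose. Ccne1, the cyclin of S-phase entry, fell from 287, 282 and 287 TPM to 191, 189.9 and 195 TPM, with 244 to 249 TPM under etoposide and 226 to 227 TPM in the knockout. Mcm10, a replication initiator, fell from 164, 168 and 171 TPM to 114, 116 and 119.7 TPM. Of 30 genes of G2 and mitosis 9 rose, 7 fell and 14 were not called, near the shares over all genes. Their median was 0.01, and its sign changed with the processing. Hmmr, a spindle protein, rose from 122, 123 and 132 TPM to 182, 193 and 188 TPM, and Ccnb2, a mitotic cyclin, fell by 0.53.

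Of 21 immediate early and AP-1 genes tested 11 rose and 4 fell, Junb among them, beside 32% higher and 26.3% lower over all genes, and the median was 0.23. Jun, Fosl1 and Atf3 are AP-1 and related factors. Jun stood at 2.68, 2.25 and 3.11 TPM untreated, 5.63, 4.92 and 5.34 TPM with etoposide, 5.97, 6.00 and 6.80 TPM in the knockout and 9.90, 10.5 and 9.74 TPM with both. Fosl1 went from 0.0409, 0.0963 and 0.172 TPM to 4.42, 5.10 and 4.69 TPM, and Atf3 from 0.451, 0.726 and 0.796 TPM to 4.87, 4.30 and 4.78 TPM. Fosl1 and Atf3, below 1 TPM in untreated wild type, passed the level filter only through the group where they are high. With no filter 26 genes of the list were tested, 11 higher and 4 lower. Where a mean of at least 5 TPM was required, 13 were tested, 6 higher and 4 lower. In Jun, Fosl1 and Atf3 the libraries with both were above all others. Of 27 genes of ATF4 and unfolded protein stress 11 rose and 5 fell, with a median of 0.08. Ddit3, the transcription factor CHOP, rose from 8.74, 8.87 and 10.5 TPM to 22.4, 23.2 and 23.2 TPM, and Gdf15, a stress cytokine, from 7.72, 7.31 and 8.52 TPM to 17.3, 18.2 and 15.4 TPM, at the level of etoposide alone (18.1, 17.6 and 16.0 TPM).

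**Figure D4:**
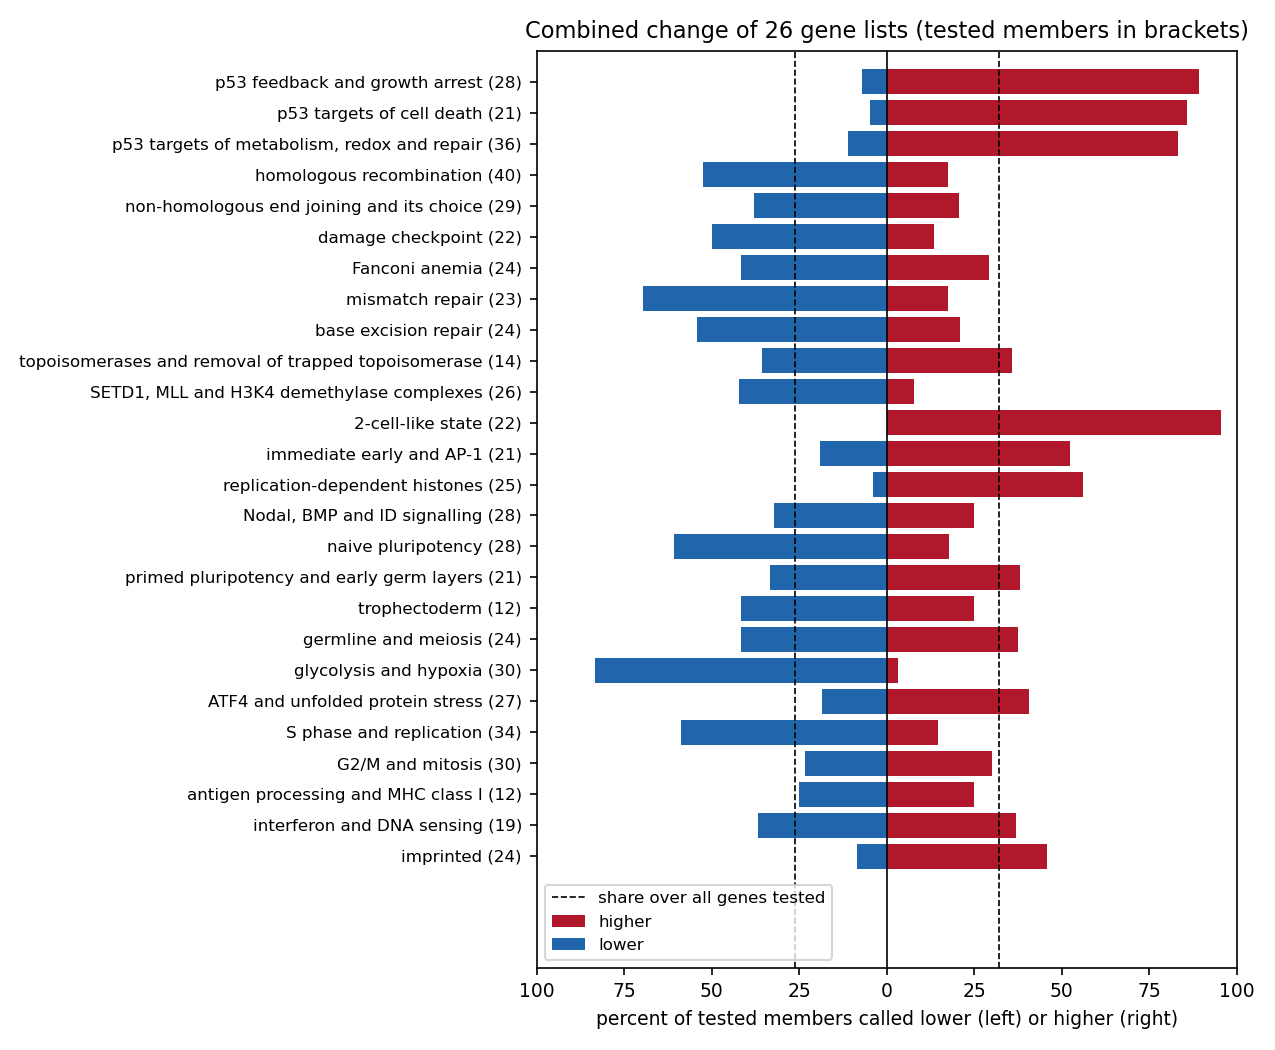
Bars give the percent of tested members of 26 gene lists called lower (blue, to the left) and higher (red, to the right) in knockout with etoposide against untreated wild type. Dashed lines mark the shares over all genes tested, 32% higher and 26.3% lower. The p53 lists and the 2-cell-like list extend far to the right, and glycolysis, mismatch repair and naive pluripotency far to the left.

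Naive pluripotency genes were lower in 17 of 28 and higher in 5, with a median of -0.11. The counts of this list and the next 3 stand beside 26.3% lower and 32% higher over all genes tested. Pou5f1 fell by 0.23 from 1524, 1524 and 1484 TPM to 1273, 1273 and 1307 TPM, and Nanog by 0.12 from 786, 770 and 773 TPM to 705, 721 and 722 TPM. Utf1, a chromatin factor of pluripotent cells, fell by 0.79 and stood at 95.7 to 96.2 TPM in the knockout and 85.3 to 97.0 TPM with both. Primed and germ layer genes split 8 higher and 7 lower of 21, and trophectoderm genes 3 and 5 of 12. Germline genes were 9 higher and 10 lower of 24: Rec8, a meiotic cohesin, rose from 15.6, 16.7 and 15.9 TPM to 50.6, 48.5 and 46.8 TPM above all others, and Hormad2, a meiotic checkpoint protein, fell by 1.49 with the knockout.

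In some genes the factors pulled apart. Retsat, a retinol saturase (chromosome 6, 72575585 to 72584471), stood at 38.5, 38.5 and 43.2 TPM untreated, 85.2, 84.0 and 87.7 TPM with etoposide, 25.4, 27.3 and 21.1 TPM in the knockout and 43.6, 45.9 and 41.4 TPM with both. The combined change of 0.12 ± 0.08 was not called (limma adjusted p = 0.213), while the linear interaction was -26.6 ± 2.77 TPM (adjusted p = 0.00804). Nudt18, a nucleotide hydrolase, stood at 7.93, 7.49 and 8.22 TPM with etoposide, 0.864, 1.08 and 0.887 TPM in the knockout and 3.37, 3.56 and 3.18 TPM with both, and untreated at 2.05, 2.04 and 2.60 TPM. Nars2, Btbd8, Mfsd4b4 and Prss42 rose with etoposide in wild type and fell in the knockout, and were lower under both by 0.67 to 1.21. In the knockout alone these 4 genes stood below untreated wild type.

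Commd5, Rbm14 and Calcoco2 are examples of called interactions among genes not raised by both factors, and Commd5 had the lowest value of the named genes. Commd5, a COMMD-family protein, stood at 11.2, 9.01 and 6.58 TPM untreated, 11.6, 4.69 and 5.03 TPM with etoposide, 15, 15.9 and 16.8 TPM in the knockout and 2.38, 2.29 and 2.90 TPM with both. The libraries with both lay below all others, and the interaction was -1.90 ± 0.36 on the log2 scale (limma adjusted p = 0.0246). Rbm14, a coactivator and RNA-binding protein, fell with etoposide in wild type from 157, 153 and 158 TPM to 107, 100 and 100 TPM, and stood at 128, 129 and 129 TPM with both, an interaction of 0.36 ± 0.05 (limma adjusted p = 0.00355). Its linear interaction, 29.4 ± 4.30 TPM, was called as well (adjusted p = 0.0221). Calcoco2, an autophagy receptor, stood at 265, 258 and 255 TPM untreated, 204, 206 and 204 TPM with etoposide and 210, 222 and 214 TPM with both.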

How the data were processed

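RNA of mouse embryonic stem cells was isolated with Trizol, poly(A) selected, depleted of ribosomal RNA and made into strand-specific libraries, per the labels' protocols. Per the submitters' processing notes, Trim Galore 0.6.6, cutadapt 3.4, HISAT2 2.2.1 and StringTie 2.2.1 were used with GRCm39; the gene annotation and the strand setting are not given in the sources used here. The TPM values that the authors deposited correct for gene length and give every library the same total. FPKM values, deposited beside them, correct for length and mapped fragments and served as an alternative. The commonest ratio of deposited coverage to FPKM among expressed genes gave an estimate of the aligned gigabases: 6.64 to 7.30 in untreated wild type and 6.88 to 7.76 in knockout with etoposide. In these libraries 28.6% to 28.9% of those genes lay at that ratio. The files hold no read counts, so no counting intervals are given.

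Rows of one gene identifier were summed, and genes were kept where the 6 libraries compared averaged 1 TPM or more. limma 3.58.1 in R 4.3.3 was fitted to log2(TPM + 1) of all 12 libraries as 4 group means with a trended prior, and p-values were Benjamini-Hochberg adjusted over 14065 genes, with calls at an adjusted p under 0.05. Fold changes on this scale understate changes of low genes. The linear interaction was fitted the same way to TPM. The test was tested on simulated data. Tables and figures were made with Python 3.11.15, pandas 2.3.3 and matplotlib 3.10.9. Named were Bod1l; the 12 highest and lowest called changes whose groups do not overlap; the 10 in each direction, called under both and under each factor, with the largest smaller single change; 6 opposed genes; the 6 highest and lowest interactions; and from each list the 4 lowest p-values and called changes of at least 1. A few genes that this rule selects are not reported here. Other genes were named after their values were seen. The comparison, the lists and the tests were chosen with earlier results of these data known.

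Same-numbered replicates of different groups did not deviate together (correlations of -0.0534 to 0.0539), so the main test has no replicate block. Alternatives changed the pseudocount, filter, unit, scaling, spread estimate, block and libraries.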

Additional observations from a re-analysis of the deposited data

Results flagged for a closer look

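In 48 of the 195 genes named, the effect of etoposide differed between knockout and wild type by a test of that difference, limma's interaction on the log2(TPM + 1) scale at an adjusted p under 0.05, and 47 of them are given here. Values below 0 mean a smaller rise, or a larger fall, with etoposide in the knockout. Among genes raised by both factors outside the p53 arrest lists the interaction was Ptprv -0.76, Perp -0.82, Nectin4 -1.09, Azin2 -0.80, Ltb4r1 -1.01, Serpine2 -0.73, Ano3 -0.62, Scn3b -0.70, Tap1 -1.08 and Sec14l5 -0.70. Among p53 targets of feedback and arrest it was Plk2 -0.86, Btg2 -0.64, Mdm2 -0.41, Trp53inp1 -0.52, Mdm4 -0.32, Ccng1 -0.30, Cgref1 -0.61, Ptp4a3 -0.63 and Rbl2 -0.47. The list of p53 targets of cell death includes Perp and Tap1, given above. For its other members the interaction was Crip2 -0.41, Bbc3 -0.39, Tnfrsf10b -0.47, Apaf1 -0.51 and Phlda3 -0.34. Among p53 targets of metabolism, redox and repair it was Ptpn14 -0.57, Rap2b -0.41, Celf5 -0.62, Zfp365 -0.50, Ddit4 -0.57, Lpin1 -0.32, Slc19a2 -0.33, Abhd4 -0.36, Ephx1 -0.77, Dcxr -0.59, Cd80 -0.60 and Trim7 -0.56. Further values below 0 were Commd5 -1.90, Mir7083 -1.38, Plcd4 -1.15, Ccn1 -0.42 and Gdf15 -0.57. Values above 0 were Prxl2b 0.42, Rbm14 0.36, Atad2b 0.34, Gemin7 0.24, Calcoco2 0.23 and Amotl2 0.19. Abhd4, Ephx1, Rbm14 and Calcoco2 were also called on the linear TPM scale, on which 23 genes of all those tested were called lower and 6 higher. Mir7083, a microRNA gene, was listed at 2.15, 0.940 and 1.82 TPM untreated and 6.20, 6.17 and 5.86 TPM with both.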

How the results depend on the processing

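Over 15 alternatives, the combined change of the 195 named genes gave 2878 values that kept the call, or lack of one, and 0 that reversed a called change. A change of sign in a gene called in neither fit was counted as kept. In 11 values the direction was kept and the call lost (3 of Mir12202, 7 of Rln3 and Top2a with quantile normalization). A further 36 genes were not tested where a mean of at least 5 TPM was required. The count of genes higher by at least 2-fold, 571, was 303 with a mean TPM of at least 5 required and 310 with FPKM, and the count lower, 195, was 324 with a pseudocount of 0.1 and 115 with FPKM. The log2 interaction called 164 genes lower; this was 93 with no level filter, 95 with quantile normalization and 90 to 127 when single libraries were left out, lowest without wild type with etoposide replicate 3. On the linear TPM scale, chosen after seeing the data, it was 23. The 9 genes with a higher interaction became 3 to 8 when single libraries were left out, lowest without wild type with etoposide replicate 3 or knockout with etoposide replicate 2. With a replicate block the combined change called 4439 genes higher and 3662 lower, and the interaction 6 higher and 113 lower. List medians changed sign over the alternatives for Fanconi anemia, Nodal signalling, primed pluripotency, germline, G2 and mitosis, and antigen processing, whose medians lie near 0. The cause of these shifts was not tested. The median SE was 0.14 for genes of 1 to 5 TPM and 0.04 above 50 TPM, so small changes of weakly expressed genes were not detectable.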

Other observations

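Over all genes tested 32% were called higher and 26.3% lower. Of 26 genes of the SETD1, MLL and H3K4 demethylase complexes, with which BOD1L is associated, 11 fell and 2 rose under both factors, with a median of -0.06. Bod1l itself, the deleted gene, is counted among the 26 and among the 11 that fell. Kdm5b, an H3K4 demethylase, fell from 218, 223 and 226 TPM to 166, 169 and 170 TPM, and Hcfc1, a shared subunit, from 171, 174 and 173 TPM to 139, 144 and 142 TPM, both below all 9 other libraries. Of 24 imprinted genes 11 rose and 2 fell, with a median of 0.22. Peg10, a retroelement-derived gene, rose from 85.3, 83.0 and 82.7 TPM to 136, 145 and 147 TPM and stood at 161 to 170 TPM in the knockout alone, and within the knockout it fell by 0.23 with etoposide (limma adjusted p = 0.000736).

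Interferon and DNA-sensing genes split 7 higher and 7 lower of 19, near the shares over all genes. Irf1, a transcription factor of interferon signalling, fell from 34.0, 38.4 and 36.4 TPM to 21.1, 22.5 and 21.4 TPM, and Oas1a, an antiviral enzyme, from 41.4, 42.8 and 42.0 TPM to 24.6, 25.1 and 25.6 TPM, both below all others. Of 12 genes of antigen processing 3 rose and 3 fell, also near those shares: B2m, the light chain of MHC class I, rose by 0.81, while Tapbp and H2-K1, a chaperone and a heavy chain, fell by 0.44 and 0.67.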
